A study of Mus musculus with 6 samples.

Results

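The homeodomain and basic helix-loop-helix (bHLH) factors that specify and maintain the endocrine cells of the pancreas were examined in islet RNA from mice that carry a miR-203 transgene. The members were given by symbol: Pdx1, Nkx6-1, Mnx1, Pax4, Nkx2-2, Pax6, Isl1, Neurod1, Rfx6 and Insm1. Of these 10 genes, 9 were found by symbol in the authors' annotated tables, which hold 26730 genes together, and Pax4 was found by its gene identifier among the 47643 genes of the raw-count tables. The name of the group covers 8 of the 10: Rfx6 is an RFX winged-helix protein and Insm1 is a zinc-finger protein. The rule used no measured value, but the members and the gene lists below were chosen with earlier results of these data known.

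The tested mice (TG) carried a transgene for the microRNA miR-203, labelled as specific to beta cells. The promoter that drives it is not given in the sources used here. Wild-type mice (WT) were the comparison. Both genotypes are labelled male and aged 10 weeks, and both fasted for 12 h before the islets were taken, so every library comes from the fasted state. There were 3 libraries of each genotype, and nothing in the labels says that they came from separate animals, so the p-values speak only of how these libraries scatter, part of which may be technical. TG 1, TG 2 and the libraries labelled WT 1 and WT 2 are in 1 set of deposited tables (the first table), and TG 3 and WT 3 are in another (the second table). The library numbers were assigned here as names and pair no TG library with a WT library. The word labelled refers to the genotype.

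Islet cells share a network of transcription factors. Pdx1, Nkx6-1, Mnx1 and Pax4 act mainly in the making or upkeep of beta cells in the mouse, whereas Nkx2-2, Pax6, Isl1, Neurod1, Rfx6 and Insm1 are used by all or most islet endocrine types. Several of them bind the insulin promoter: Pdx1 at A boxes, and Neurod1 at E boxes as a dimer with an E protein. A microRNA lowers the level or translation of transcripts that pair with its seed, the short stretch near its 5′ end, usually through the 3′ untranslated region (3′ UTR).

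The transgene product sets which members could pair with it, so the mature microRNAs of the locus and the matching stretches in the members are given first. The mature sequences are from RefSeq (GRCm38.p6, + strand of chromosome 12, at chr12:112130927-112130948 for the 3p arm and chr12:112130889-112130910 for the 5p arm), with the seed, bases 2 to 8, in capitals.
mmu-miR-203-3p: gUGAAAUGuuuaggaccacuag
mmu-miR-203-5p: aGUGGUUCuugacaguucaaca

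The longest annotated 3′ UTR of each gene (GENCODE transcripts, GRCm38) was searched on the sense strand for CATTTCA, which pairs with the whole 3p seed (7mer-m8), and for ATTTCAA, which pairs with bases 2 to 7 and is followed by an A (7mer-A1). These motifs overlap by 6 letters, and a match to both at once was counted as an 8mer, which no member held. Pdx1 held both kinds of match, 30 bases apart near the end of exon 2 of 2. Isl1 held 1 match in exon 6 of 6 and Insm1 held 1 match in its single exon. The stretches are shown because they are the only 3p matches in the 10 members, with the matched bases in capitals.
Pdx1, 7mer-m8, chr5:147275771-147275798, + strand: tcctagaggtcgatgtttcCATTTCAtt
Pdx1, 7mer-A1, chr5:147275741-147275768, + strand: gttgaaggcaacctggctgATTTCAAac
Isl1, 7mer-m8, chr13:116299096-116299123, − strand: ctcaaaaaatgcgcgttttCATTTCAct
Insm1, 7mer-m8, chr2:146224722-146224749, + strand: ttccccctgccacttttgaCATTTCAct

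A 7mer-m8 match was present in 17.3% of the 13845 tested genes with an annotated 3′ UTR. Among genes whose 3′ UTR was of like length, the share was 11.3% for Pdx1, 12.2% for Isl1 and 12.2% for Insm1. The other 7 members held neither 3p motif, and no member held the 5p motifs GAACCAC or AACCACA. A match describes letters in this window and does not show that the microRNA binds there.

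Before the results, the libraries were set against their labels. The Mir203 gene had 170, 164 and 150 counts in TG 1, TG 2 and TG 3, against 39, 0 and 0 counts in the libraries labelled WT 1, WT 2 and WT 3. The library labelled WT 1 thus goes against its label, and the fold changes of members and lists are given with and without it. In the second table, Xist had 27240 counts in TG 3 and 25145 counts in WT 3, against 4 to 13 counts in the libraries of the first table, which goes against the label male for that pair, so fold changes from the first table alone are also given. Total counts lay between 21615905 and 27482339 in TG libraries and between 20176456 and 24631199 in WT libraries. Hormone genes took 13.4%, 24.0% and 12.2% of the counts in TG 1, TG 2 and TG 3, against 23.9%, 24.2% and 15.8% in the libraries labelled WT 1, WT 2 and WT 3. TG 2 therefore stood closer to WT than the other TG libraries on this measure. Values below are CPM (counts scaled to a common library size) scaled with TMM factors, and tests are edgeR's quasi-likelihood test with the table as a term, adjusted over all 16072 genes tested.

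Pdx1 was lower in every TG library than in any WT library, and it was the member with the largest absolute estimate among the 9 tested. Mnx1 and Nkx2-2 had estimates below 0, and Isl1, Insm1, Rfx6, Pax6, Nkx6-1 and Neurod1 had estimates above 0 that were all at most 0.31 on the log2 scale. None of the 9 passed an adjusted p of 0.05 in the edgeR quasi-likelihood test, where 0.0% of all tested genes passed. At an unadjusted p under 0.05, Pdx1 was the 1 member of 9, against 14.1% of all tested genes. The median log2 fold change was 0.14 over the 9 members and -0.01 over all tested genes. It was 0.21 without the library labelled WT 1 (6 of 9 above 0), and in the first table alone it was -0.03 (3 of 9 above 0). Every tested member was well covered, with between 546 counts (Mnx1 in the library labelled WT 1) and 19290 counts (Insm1 in TG 3) per library.

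**Figure D1:**
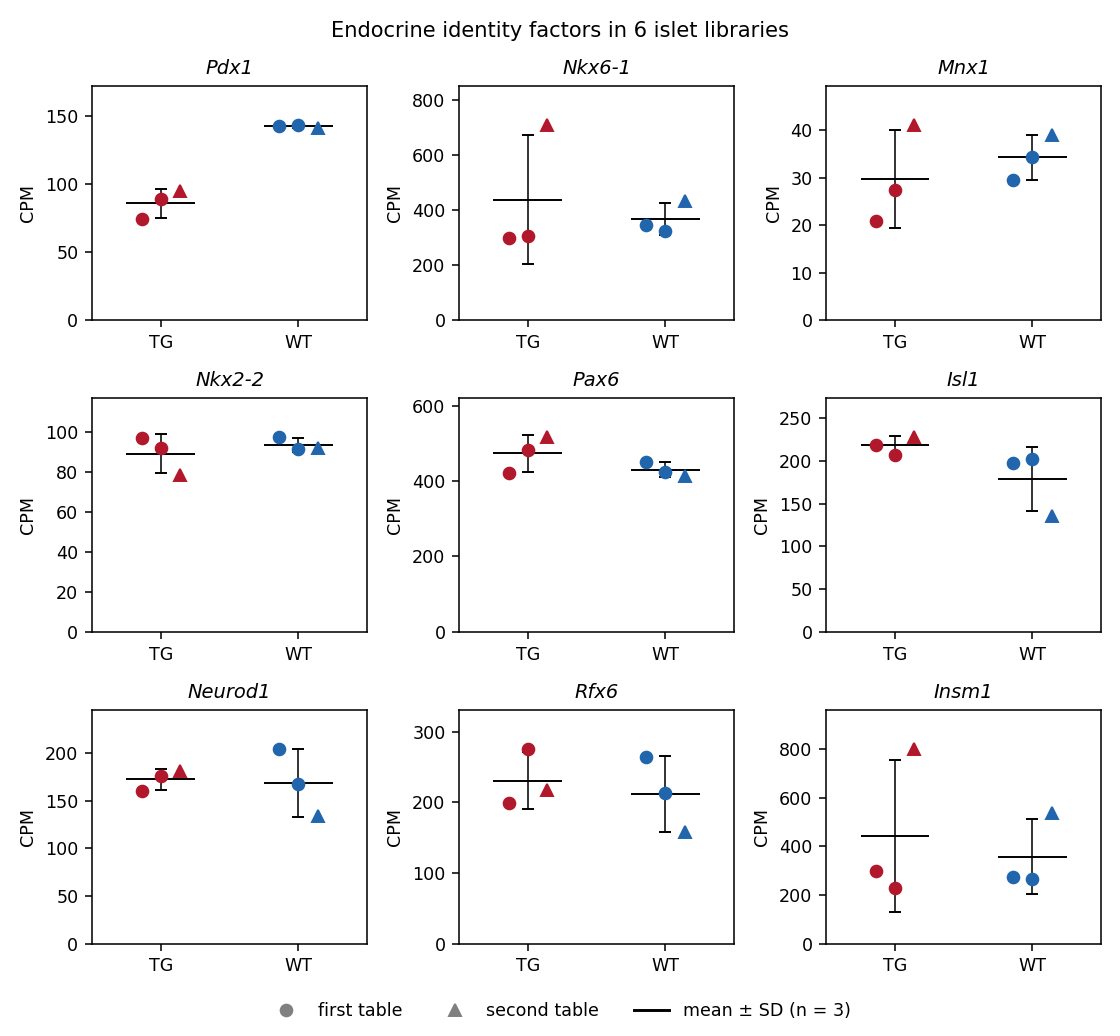
CPM of the 9 detected identity factors in each library, with TG on the left and WT on the right of each panel; circles are libraries of the first table, triangles those of the second, and the black line and bar are the mean ± SD (n = 3). Pdx1 sits between 74.1 and 94.4 CPM in TG and between 140.8 and 143.3 CPM in WT, whereas the TG and WT ranges of Nkx6-1, Mnx1, Nkx2-2, Pax6, Neurod1, Rfx6 and Insm1 overlap.

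Pdx1 (chr5:147269959-147275848, + strand) encodes the homeodomain factor required to form the pancreas and to keep adult beta cells in their mature state. It had 74.1, 88.9 and 94.4 CPM in TG 1, TG 2 and TG 3, against 142.7, 143.3 and 140.8 CPM in the libraries labelled WT 1, WT 2 and WT 3. The groups did not overlap. This order, all TG below all WT, was found in 6.42% of the tested genes. TG libraries averaged 85.8 ± 10.5 CPM and WT libraries 142.3 ± 1.30 CPM (SD, n = 3 of each genotype). The log2 fold change was -0.73 (SE 0.14), a change of -39.9% in TG. By edgeR's quasi-likelihood test the unadjusted p was 0.00121 and the adjusted p 0.199. Pdx1 ranked 71 of 16072 by p. In bulk islets, fewer cells of a type and less RNA per cell cannot be told apart.

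The call on Pdx1 depended on the test and on 1 library, while its size did not. Over 16 alternatives the log2 fold change stayed between -0.82 and -0.64, and the adjusted p ran between 0.000894 and 0.924. DESeq2 called it (adjusted p = 0.000894), where 0.898% of the genes were called lower. It was also called by edgeR with no low-count filter (adjusted p = 0.00274), where 1.25% of the genes were called lower, and by edgeR without TG 2 (log2 fold change -0.79, adjusted p = 0.0152), where 4.39% were called lower. It was not called by limma-voom (adjusted p = 0.253). Without the library labelled WT 1 the log2 fold change was -0.70 (adjusted p = 0.387, edgeR), and in the first table alone it was -0.81 (adjusted p = 0.914, edgeR).

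Within the tables, the mean log2 CPM of Pdx1 in TG differed from WT by -0.82 in the first and by -0.58 in the second. The WT libraries lay very close together, with a coefficient of variation of 0.910%, below the counting error of 1.75% to 1.94% of these libraries. Only 0.199% of tested genes had a smaller one in WT. In TG it was 12.2%, against a median of 26.1% over all tested genes.

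Plut (2210019I11Rik in the authors' tables), an antisense long non-coding RNA at the Pdx1 locus (chr5:147228596-147271521, − strand), was measured in its own right. It had 3.76, 8.85 and 5.81 CPM in TG 1, TG 2 and TG 3, against 12.3, 16.5 and 11.6 CPM in the libraries labelled WT 1, WT 2 and WT 3. These groups did not overlap either, an order found in 6.42% of tested genes. Its log2 fold change was -1.13 (SE 0.34), with an adjusted p of 0.245 by edgeR's quasi-likelihood test, 0.0439 by DESeq2 and 0.0183 by edgeR without TG 2. DESeq2 called 0.898% of the genes lower, and edgeR without TG 2 called 4.39% lower. The log2 fold change of Plut was -1.21 without the library labelled WT 1 and -1.20 in the first table alone. Plut was chosen for its position after its values could be seen. Its exons do not overlap those of Pdx1, but the sources used here do not give the strand setting of the counting, and reads from the overlapping stretch therefore cannot be assigned to a strand.

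Nkx6-1 (chr5:101658139-101664996, − strand) encodes a homeodomain repressor that keeps beta cells from taking on other islet fates. It had 298, 304 and 709 CPM in TG 1, TG 2 and TG 3, against 344, 325 and 432 CPM in the libraries labelled WT 1, WT 2 and WT 3. The TG libraries lay below WT in the first table and above WT in the second, an opposite order found in 6.59% of tested genes, and the ranges overlapped. The log2 fold change was 0.14 (SE 0.21), with an adjusted p of 0.806 (edgeR quasi-likelihood test). It was 0.25 without the library labelled WT 1 and -0.15 in the first table alone.

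Mnx1 (chr5:29473034-29478470, − strand) encodes a homeodomain factor that acts early in the pancreatic bud and later in beta cells. Its 20.8, 27.3 and 41.1 CPM in TG 1, TG 2 and TG 3 stood against 29.5, 34.4 and 38.9 CPM in the libraries labelled WT 1, WT 2 and WT 3. The ranges overlapped, since TG 3 was above all WT libraries. The log2 fold change was -0.25 (SE 0.18), with an adjusted p of 0.568 by edgeR's quasi-likelihood test. It moved with single libraries, to -0.09 without TG 1 and -0.13 without WT 2, and it was -0.41 in the first table alone.

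Pax4 encodes a paired homeodomain factor that directs endocrine progenitors towards the beta and delta fates. It had 0 counts in all 6 libraries. A count of 0 allows up to 3 counts, which is 0.104 to 0.125 CPM in the TG libraries and 0.131 to 0.162 CPM in the WT libraries. These limits cover counting error only. No fold change was computed.

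Of the 6 factors used across islet cell types, none passed an adjusted p of 0.05 in the edgeR test, where 0.0% of tested genes passed. Isl1 was the 1 whose TG libraries all lay above all WT libraries. Isl1 (chr13:116298281-116309689, − strand) encodes a LIM homeodomain factor that works with the adaptor Ldb1. It had 219, 207 and 228 CPM in TG 1, TG 2 and TG 3, against 197, 203 and 136 CPM in the libraries labelled WT 1, WT 2 and WT 3. This order was found in 6.96% of the tested genes. In the first table TG 2 and WT 2 were nearly level, and most of the difference came from the second table, where WT 3 was the lowest library. The log2 fold change was 0.31 (SE 0.18), with an adjusted p of 0.473 (edgeR quasi-likelihood test). It was 0.37 without the library labelled WT 1 and 0.09 in the first table alone.

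Pax6 (chr2:105668900-105697364, + strand), a paired homeodomain factor at hormone gene promoters, had 421, 482 and 517 CPM in TG 1, TG 2 and TG 3, against 452, 424 and 413 CPM in the libraries labelled WT 1, WT 2 and WT 3. TG 1 lay within the WT range and the other TG libraries above it. Its log2 fold change was 0.14 (SE 0.16). Nkx2-2 (chr2:147177546-147194243, − strand), a homeodomain factor that holds beta cell identity by repressing other islet programmes, had 97.0, 92.0 and 78.3 CPM in TG, against 97.6, 91.3 and 92.1 CPM in WT, each in replicate order. The first-table libraries of both genotypes were nearly level and TG 3 was the lowest of all. Its log2 fold change was -0.08 (SE 0.13).

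Neurod1 (chr2:79452521-79456751, − strand), the bHLH activator of the insulin gene, had 160, 176 and 181 CPM in TG, against 204, 167 and 134 CPM in WT. All TG values lay inside the WT range. Its log2 fold change was 0.05 (SE 0.18). Rfx6 (chr10:51677756-51730429, + strand), which is needed for islet cell differentiation and for mature beta cell function in the mouse, had 199, 276 and 217 CPM in TG, against 265, 214 and 158 CPM in WT. The ranges overlapped widely, and its log2 fold change was 0.15 (SE 0.20). Insm1 (chr2:146221921-146225020, + strand), a zinc-finger transcriptional repressor that endocrine differentiation requires and that recruits Kdm1a and Rcor proteins, had 297, 230 and 801 CPM in TG, against 273, 266 and 537 CPM in WT. The second-table library was the highest in both genotypes, and the log2 fold change was 0.17 (SE 0.20). The adjusted p-values of these 5 genes, Pax6 to Insm1, lay between 0.731 and 0.928 by edgeR's quasi-likelihood test. Without the library labelled WT 1, the log2 fold change was 0.21 for Pax6, -0.06 for Nkx2-2, 0.20 for Neurod1, 0.30 for Rfx6 and 0.25 for Insm1, with -0.25 for Mnx1. In the first table alone it was 0.05 for Pax6, 0.00 for Nkx2-2, -0.14 for Neurod1, -0.01 for Rfx6 and -0.03 for Insm1.

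The exons of Neurod1 overlap those of Cerkl on the same strand, which had 489 to 882 counts in TG and 446 to 643 counts in WT. Reads of the shared stretch could belong to either gene.

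**Figure D2:**
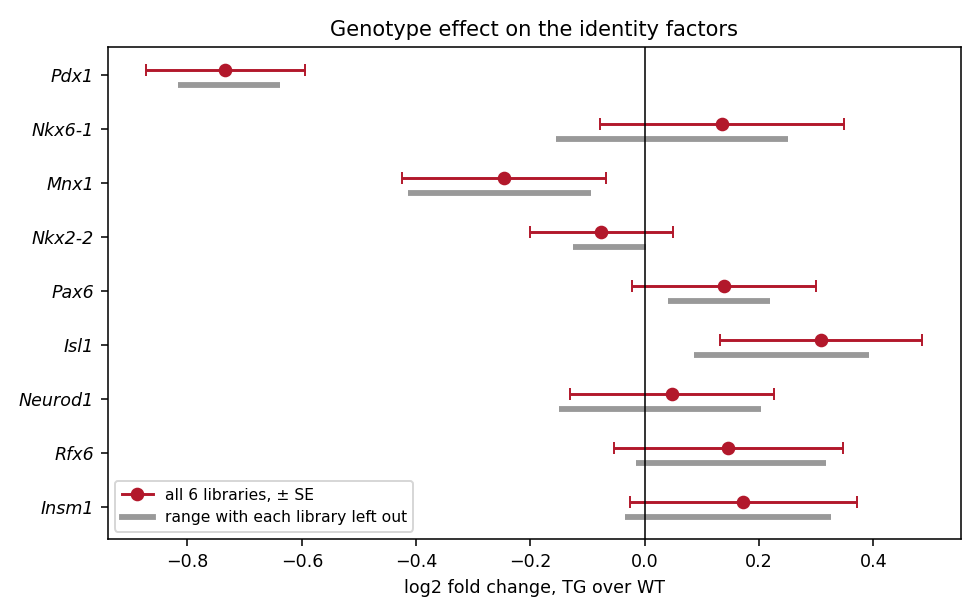
Log2 fold change of each identity factor, TG over WT, from the edgeR fit; red points are estimates from all 6 libraries with ± SE, and grey bars span the estimates when each library is left out in turn. Pdx1 is at -0.73 with its grey bar between -0.82 and -0.64, and the grey bars of Nkx6-1, Nkx2-2, Neurod1, Rfx6 and Insm1 cross 0.

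The members with a 7mer-m8 match to miR-203-3p did not lie on the same side of 0: the log2 fold change was -0.73 for Pdx1, 0.31 for Isl1 and 0.17 for Insm1. Across all tested genes with a 3′ UTR, the median log2 fold change was -0.02 for the 2394 genes with such a match, 0.01 for the 1090 genes with the 7mer-A1 alone and -0.00 for the 10361 genes with neither.

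The genotype difference of the members was compared between the tables, because the second holds a single library of each genotype. No member had a called interaction of table and genotype (0 of 9, with 0.0% of tested genes called by edgeR's quasi-likelihood test and 0.0311% by DESeq2). At an unadjusted p under 0.05 no member passed, against 2.28% of tested genes. The interaction of Nkx6-1 came closest, with a log2 difference of 0.86 (SE 0.36, unadjusted p = 0.0533, adjusted p = 0.9999, edgeR quasi-likelihood test), followed by Isl1 with 0.66 (SE 0.32, unadjusted p = 0.0861, edgeR).

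Averaged over the genotypes, the tables also differed, a comparison made after the values were seen. Insm1 was 2.48-fold higher in the second table than in the first (log2 1.31, SE 0.20, adjusted p = 0.0243, edgeR quasi-likelihood test), where 5.68% of tested genes were called higher. Nkx6-1 (log2 0.82, adjusted p = 0.0599) and Mnx1 (log2 0.54, adjusted p = 0.103) did not pass this edgeR test. The tables also differ in the Xist and Y-linked counts, which mark sex. Summed acinar cell markers differ too, with 349 CPM in TG 3 and 183 CPM in WT 3, against 3720 to 7904 CPM in the first table. The table, sex and acinar content therefore cannot be told apart here.

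Divided by the gene length in the authors' tables, the members spread over about an order of magnitude. In TG the order of mean CPM per kilobase was Insm1 143, Nkx6-1 139, Neurod1 63.1, Rfx6 57.7, Isl1 55.0, Pax6 40.5, Pdx1 39.7, Nkx2-2 31.0 and Mnx1 13.2. In WT it was Nkx6-1 117, Insm1 116, Pdx1 65.9, Neurod1 61.7, Rfx6 53.1, Isl1 45.1, Pax6 36.7, Nkx2-2 32.6 and Mnx1 15.2. With these lengths, Pdx1 stood at place 7 of 9 in TG and at place 3 of 9 in WT.

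Not every step in that order exceeds the spread. In TG the libraries' ranges were apart between Nkx6-1 and Neurod1, between Isl1 and Pax6, between Pdx1 and Nkx2-2, and between Nkx2-2 and Mnx1, and other neighbours overlapped. In WT they were apart between Insm1 and Pdx1, between Pax6 and Nkx2-2, and between Nkx2-2 and Mnx1, and other neighbours overlapped. The places also depend on the length used. It is 11694 bases for Pax6 in the authors' tables against 4427 bases for its longest annotated transcript, 3959 against 2516 bases for Isl1 and 2875 against 2120 bases for Nkx2-2. The shorter lengths would raise these 3 genes relative to Pdx1, whose length is 2158 bases in both sources, so its place is a description under the authors' lengths.

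**Figure D3:**
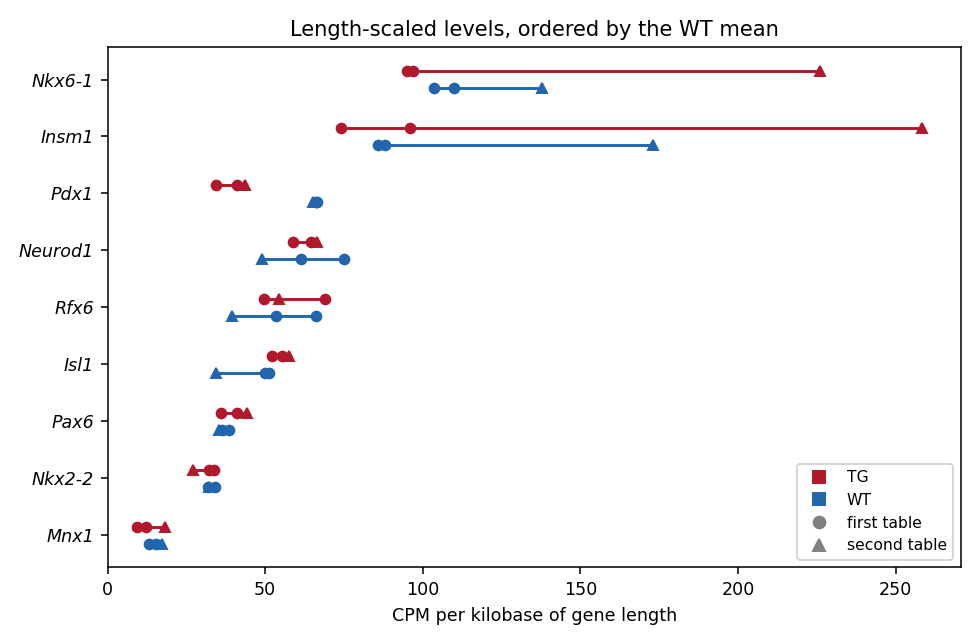
CPM per kilobase of gene length for the 9 detected members, ordered by the WT mean; red is TG (upper of each pair), blue is WT, circles and triangles are libraries of the first and second table, and lines join the lowest and highest library. Pdx1 averages 39.7 in TG and 65.9 in WT, and TG 3 holds the highest single values, 226 for Nkx6-1 and 258 for Insm1.

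The ratio of Pdx1 to 5 other members was compared between the genotypes. Pdx1 itself did not overlap between them, so these ratios largely repeat its difference and are not separate results. The share of other gene pairs whose ratios do not overlap was not computed. The ratio of Pdx1 to Pax6 in CPM was 0.176, 0.184 and 0.183 in TG 1, TG 2 and TG 3, against 0.316, 0.338 and 0.341 in the libraries labelled WT 1, WT 2 and WT 3. The ratio of Pdx1 to Isl1 was 0.339, 0.429 and 0.414 in TG, against 0.723, 0.708 and 1.04 in WT. Neither ratio overlapped between the genotypes. The ratio of Pdx1 to Nkx6-1 was 0.248, 0.292 and 0.133 in TG, against 0.414, 0.442 and 0.326 in WT, and that to Neurod1 was 0.462, 0.506 and 0.521 in TG, against 0.699, 0.857 and 1.05 in WT, again without overlap. The ratio to Insm1 did overlap, with 0.249, 0.386 and 0.118 in TG, against 0.523, 0.540 and 0.262 in WT. The 9 members together took 1786, 1883 and 2866 CPM in TG, against 2005, 1866 and 2081 CPM in WT, and those sums did overlap.

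Among the members, the profile of Pdx1 over the 6 libraries was nearest to that of Mnx1, with a root mean square difference of 0.33 in centred log2 CPM. Of 5902 candidate genes, the nearest to Pdx1 were Hadh (0.113), a mitochondrial enzyme of fatty acid oxidation, Fmn2 (0.135), an actin-nucleating formin, and Tmem30b (0.136), a subunit of lipid flippases. Hadh had 183, 258 and 270 CPM in TG, against 342, 348 and 358 CPM in WT. It was chosen for its likeness to Pdx1, which fixes this order.

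Nkx6-1 was nearest to Insm1 among the members (0.270), and of 5322 candidates to Siah2 (0.0626), Osbpl5 (0.102) and Nod1 (0.107). Siah2, a ubiquitin ligase, had 49.2, 50.4 and 108 CPM in TG, against 54.1, 48.1 and 71.3 CPM in WT. As with Nkx6-1, TG 3 was its highest library. Siah2 was chosen for its likeness to Nkx6-1, which fixes this. Neurod1 and Rfx6 were each other's nearest member (0.137), Pax6 (0.149) and Isl1 (0.174) were nearest to Neurod1, Nkx2-2 to Pax6 (0.206) and Mnx1 to Nkx6-1 (0.283). These distances are descriptions over 6 libraries.

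Genes that earlier work reports as activated by these factors in beta cells had lower estimates in TG throughout, with a marked difference between TG libraries. This list and those below were chosen with earlier results of these data known, and their counts are therefore descriptions. All 17 genes were tested and all 17 had an estimate below 0, with a median log2 fold change of -0.87, against -0.01 over all tested genes. By edgeR 0 of 17 were called. At an unadjusted p under 0.05, 7 of 17 were lower, where 4.81% of tested genes were. DESeq2 called 6, all lower, where it called 4.97% of all genes in either direction and 0.898% lower. Without TG 2, edgeR called 10, all lower, where it called 13.2% of all genes in either direction and 4.39% lower. Without the library labelled WT 1, 15 of 17 had an estimate below 0 and the median was -0.75, and in the first table alone all 17 did and the median was -0.91.

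Glp1r, the receptor for the incretin GLP-1, had 53.7, 83.3 and 93.4 CPM in TG 1, TG 2 and TG 3, against 144, 123 and 149 CPM in the libraries labelled WT 1, WT 2 and WT 3 (log2 fold change -0.87, SE 0.20, adjusted p = 0.199, edgeR quasi-likelihood test). Pcx, the mitochondrial pyruvate carboxylase, had 33.6, 95.7 and 62.3 CPM in TG, against 148, 131 and 217 CPM in WT (log2 fold change -1.34, SE 0.38). Slc2a2, the glucose transporter of mouse beta cells, had 40.8, 183 and 70.5 CPM in TG, against 317, 352 and 229 CPM in WT (log2 fold change -1.62, SE 0.49). All TG libraries lay below all WT libraries for each of these 3 genes, an order found in 6.42% of tested genes. They are named for the smallest p in the list, which favours this order.

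Mafa, a bZIP activator of insulin that also stands in the list of other factors below, had 3.72, 249 and 18.1 CPM in TG, against 406, 487 and 675 CPM in WT. It was lower in every TG library, and TG 2 was far above the other TG libraries. Its log2 fold change was -2.83 (SE 1.41, adjusted p = 0.41 with all libraries and 0.00104 without TG 2, edgeR quasi-likelihood test), and Mafa is named here for that difference after its values were seen.

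For Pdx1 the TG libraries did not split in this way. Relative to the WT mean of the same table, Pdx1 stood at -0.95, -0.69 and -0.58 log2 CPM in TG 1, TG 2 and TG 3. The median of the 17 activated genes stood at -1.77, -0.25 and -0.98, and the median of the 9 members at -0.16, -0.07 and 0.43. In TG 2, where the activated genes were nearest to WT, Pdx1 was thus further below WT than their median.

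**Figure D4:**
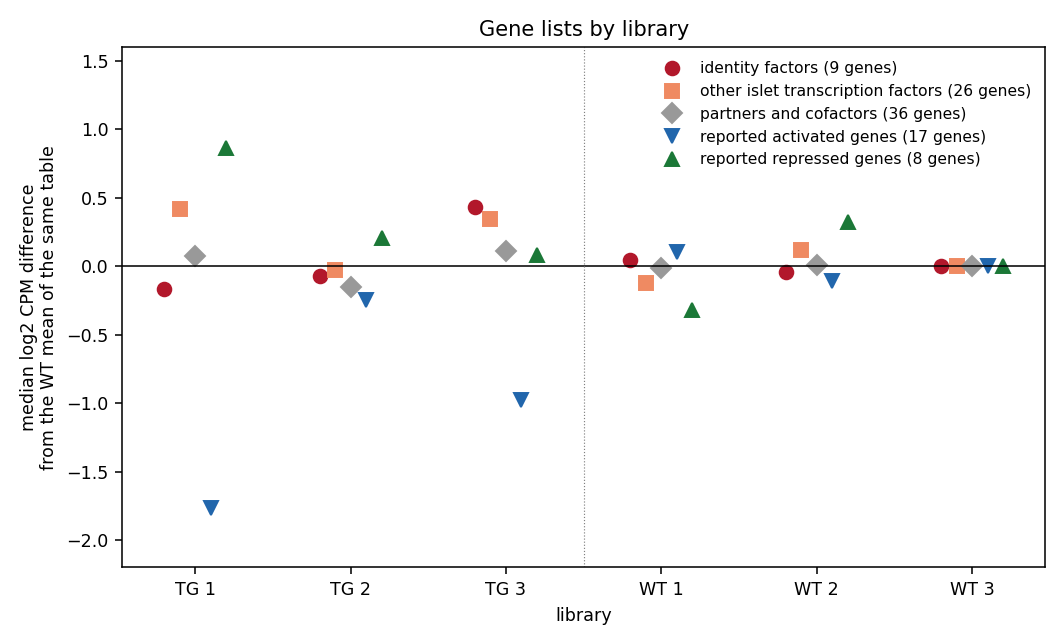
Median log2 CPM difference of 5 gene lists from the WT mean of the same table, by library, with TG libraries left of the dotted line; the value of WT 3 is 0 by construction, as it is the only WT library of its table. The 17 reported activated genes are at -1.77, -0.25 and -0.98 in TG 1, TG 2 and TG 3, while the 9 identity factors are at -0.16, -0.07 and 0.43.

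Genes reported as repressed by the members in beta cells had estimates above 0 in 8 of 8, with a median log2 fold change of 0.37, but 1 of 8 passed an unadjusted p of 0.05, where 9.32% of tested genes did, and 0 were called by edgeR, by DESeq2 or in the first table alone. Without TG 2, edgeR called 1 of 8, where it called 13.2% of all genes. Without the library labelled WT 1, 6 of 8 were above 0 and the median was 0.12, and in the first table alone 7 of 8 were above 0 and the median was 0.60. Ldha, the lactate dehydrogenase subunit that beta cells keep low, had 280, 25.5 and 32.9 CPM in TG 1, TG 2 and TG 3, against 15.8, 26.6 and 14.9 CPM in the libraries labelled WT 1, WT 2 and WT 3. TG 1 alone held the high value, and the log2 fold change of 2.30 (SE 0.85) had an adjusted p of 0.304 (edgeR quasi-likelihood test). Sst, the delta cell hormone somatostatin, had a log2 fold change of 0.51 (SE 0.30) and Npy, a neuropeptide, 0.47 (SE 0.37). Of these 8 genes, 4 are also alpha cell markers and 1 is also a delta and PP cell marker in the lists used here.

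The other islet transcription factors had estimates above 0 in 23 of the 26 tested, with a median log2 fold change of 0.27. At an unadjusted p under 0.05, 4 of 26 were higher and 1 was lower, where 9.32% of tested genes were higher and 4.81% lower, and 0 were called by edgeR. DESeq2 called 1 of 26, where it called 4.97% of all genes, and edgeR without TG 2 called 5 of 26, where it called 13.2%. Without the library labelled WT 1, 19 of 26 were above 0 and the median was 0.21, and in the first table alone 19 of 26 were above 0 and the median was 0.17. Gata6, a zinc-finger factor of the pancreatic bud, had 37.2, 15.9 and 65.4 CPM in TG, against 12.5, 15.1 and 20.1 CPM in WT, with a log2 fold change of 1.20 (SE 0.34). Hnf4a, a nuclear receptor, had a log2 fold change of 0.58 (SE 0.19), and Tshz1, a zinc-finger factor, -0.38 (SE 0.13). The adjusted p-values of these 3 genes lay between 0.237 and 0.285 by edgeR's quasi-likelihood test. Foxa1, Onecut1, Nkx6-2 and Lmx1a were too low to test.

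Binding partners and cofactors of the members were evenly split, with 18 of 36 estimates above 0 and 18 below and a median of 0.00. By edgeR with all libraries and by DESeq2, 0 were called. Without TG 2, edgeR called 1 of 36, Setd7 (adjusted p = 0.0124), where it called 13.2% of all genes. The median of the list was 0.04 without the library labelled WT 1 and -0.04 in the first table alone. Pknox1, a TALE homeodomain partner of Pbx and Pdx1, had the smallest p, with 25.1, 25.8 and 24.0 CPM in TG, against 31.4, 31.2 and 30.9 CPM in WT (log2 fold change -0.32, SE 0.12, unadjusted p = 0.035, adjusted p = 0.314, edgeR quasi-likelihood test). All TG libraries lay below all WT libraries, an order found in 6.42% of tested genes. Pknox1 is named for its smallest p, which favours this order. It was the 1 of 36 at an unadjusted p under 0.05, a share below the 14.1% of all tested genes. Rnf40, a histone H2B ubiquitin ligase, had a log2 fold change of -0.26 (SE 0.12) and Ldb2, a LIM-binding adaptor, 1.05 (SE 0.50). Ldb1, the partner of Isl1, had 0.22 (SE 0.15).

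Markers of other cells were set beside these results, with the count of estimates above 0 and the median log2 fold change of each list. Where sums did not overlap, the share of other gene sets with such sums was not computed. Markers of beta cells other than the members were below 0 in 13 of 13 (median -1.12), with sums of 54574 to 225454 CPM in TG and 118154 to 240071 CPM in WT, and 11 of these are also among the 17 activated genes. They were below 0 in 11 of 13 without the library labelled WT 1 (median -1.10) and in 13 of 13 in the first table alone (median -0.96). Delta and PP cell markers were above 0 in 8 of 8 (median 0.93), with sums of 13258 to 36409 CPM in TG and 8387 to 9599 CPM in WT. These sums did not overlap, but Ppy and Pyy made up most of them in TG, averaging 13989 and 7230 CPM. Sst, Hhex, Ghsr and Ptprz1 each overlapped between the genotypes. All 8 markers also had estimates above 0 without the library labelled WT 1 (median 0.75) and in the first table alone (median 1.04). Alpha cell markers were above 0 in 10 of 11 (median 0.41), with sums of 23691 to 49318 CPM in TG and 19476 to 27945 CPM in WT. They were above 0 in 8 of 11 without the library labelled WT 1 (median 0.20) and in 10 of 11 in the first table alone (median 0.55).

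Duct cell markers were above 0 in 11 of 11 (median 0.74), with sums of 2319 to 2913 CPM in TG and 1204 to 1720 CPM in WT, and the groups did not overlap. The median was 0.72 without the library labelled WT 1 (11 of 11) and 0.37 in the first table alone (10 of 11). Stellate and fibroblast markers (9 of 11 above 0, median 1.37) summed to 35.7 to 185 CPM in TG and 27.6 to 82.2 CPM in WT. Their median was 1.62 without the library labelled WT 1 and 1.92 in the first table alone, with 9 of 11 above 0 in each. Schwann cell markers (5 of 6 above 0, median 1.32) summed to 27.4 to 56.2 CPM in TG and 18.9 to 30.2 CPM in WT, with a median of 1.33 without the library labelled WT 1 (5 of 6) and 1.41 in the first table alone (6 of 6).

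Acinar cell markers differed most between the tables. They summed to 4148 and 5630 CPM in TG 1 and TG 2, against 349 CPM in TG 3. In the libraries labelled WT 1 and WT 2 they summed to 3720 and 7904 CPM, against 183 CPM in WT 3. Their direction was not stable, with 10 of 14 above 0 (median 0.05) over all libraries, 6 of 14 without the library labelled WT 1 (median -0.08) and 3 of 14 in the first table alone (median -0.18). Endothelial cell markers (8 of 10 above 0, median 0.38) summed to 321 to 682 CPM in TG and 316 to 491 CPM in WT. They were above 0 in 8 of 10 without the library labelled WT 1 (median 0.31) and in 5 of 10 in the first table alone (median 0.05). Myeloid and lymphoid markers (3 of 8 above 0, median -0.46) summed to 38.2 to 77.2 CPM in TG and 38.8 to 113 CPM in WT, with a median of -0.37 without the library labelled WT 1 and -0.85 in the first table alone. Neuronal markers (4 of 6 above 0, median 0.42) summed to 207 to 267 CPM in TG and 250 to 287 CPM in WT, with a median of 0.40 without the library labelled WT 1 and 0.37 in the first table alone. No marker of any list was at 0 in all libraries. The part of these cells in the differences of Pdx1 and of the reported activated and repressed genes was not tested.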

How the data were processed

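Islet RNA of 3 TG and 3 WT libraries was analysed from the raw counts that the authors deposited per gene in 2 sets of tables. The submitters' processing notes name CASAVA 1.8, HISAT2 and the build GRCm38 (mm10). The sources used here do not give the read counter or its strand setting. The authors also deposited a normalized signal and FPKM values per gene, per the file headers; both were used for checks of the counts alone, while gene names, coordinates and lengths came from the annotated FPKM tables.

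After joining the 2 tables by gene, edgeR 4.0.16 (R 4.3.3) was run with its filterByExpr filter (16072 of 29725 genes with a count), TMM, terms for table and genotype, the quasi-likelihood F-test and Benjamini-Hochberg adjustment with a threshold of 0.05. The SE is the absolute log2 fold change over the square root of F. The fit was tested on simulated data with 200 changed genes. DESeq2 1.42.0 and limma-voom (limma 3.58.1) were alternatives. CPM use the TMM-scaled library sizes. No count belonged to a nameless gene. Likeness was the root mean square difference of log2 CPM (prior count 2) centred per gene, among genes with a mean of at least 20 CPM and at least 0.5 times the member's own spread. From each list the 3 genes with the smallest p are named. MicroRNA sequences are from RefSeq; 3′ UTRs are from GENCODE transcripts, and coordinates are those of GRCm38. The members and lists were chosen with earlier results of these data known.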

Additional observations from a re-analysis of the deposited data

Results flagged for a closer look

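The TG effect of Nkx6-1 had opposite signs in the tables: mean log2 CPM in TG differed from WT by -0.15 in the first table and by 0.71 in the second, and each TG library lay on that side of every WT library of its own table. Mnx1 did the same, with -0.42 in the first table and 0.078 in the second. Such opposite order was found in 6.59% of tested genes. The interaction of table and genotype did not pass for either gene: for Nkx6-1 it was 0.86 (SE 0.36, adjusted p = 0.9999) and for Mnx1 0.49 (SE 0.37, adjusted p = 0.9999) by edgeR's quasi-likelihood test. The second table holds 1 library per genotype.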

How the results depend on the processing

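Each log2 fold change was recomputed under 16 alternatives: other scaling (RLE, upper-quartile), DESeq2, limma-voom, no low-count filter, no table term, the first table only, hormone genes left out, an acinar covariate, robust estimation, and each library left out in turn. Pdx1, Mnx1, Pax6 and Isl1 kept their direction in all 16. The number of members called was 0 in the main edgeR fit and 1 (Pdx1) under DESeq2 and with no low-count filter, and 0 to 1 when each library was left out. Genes called over the whole table numbered 0 in the main edgeR fit (2271 at an unadjusted p under 0.05), 752 under DESeq2 and 1672 with no low-count filter. They numbered 0 to 2188 when each library was left out, the highest without TG 2. In the first table only, the sign turned for Nkx6-1 (-0.15), Neurod1 (-0.14), Rfx6 (-0.0100), Insm1 (-0.0285) and Nkx2-2 (0.00275). Leaving out single libraries spanned -0.16 to 0.25 for Nkx6-1, -0.15 to 0.20 for Neurod1, -0.0148 to 0.32 for Rfx6, -0.0344 to 0.33 for Insm1 and -0.13 to 0.00217 for Nkx2-2, with the turn without TG 3 in all 5 and without WT 3 in all but Nkx2-2. With the table as a term, leaving out TG 3 or WT 3 leaves a single library in the second table, so these fits rest on the first table alone and are not separate alternatives. The cause of the higher counts of calls under DESeq2, with no low-count filter and without TG 2 was not tested. No member was called for the interaction under RLE factors, no low-count filter or DESeq2. No paired analysis was possible because the labels give the groups no shared replicate numbers. The number of libraries, 3 per genotype and at most 2 of them in 1 table, limits the precision.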
